A study of Homo sapiens with 12 samples.

Results

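The genes described here act in mitosis: 55 genes for mitotic kinases and their cyclins and phosphatases, chromosomal passenger and checkpoint proteins, kinetochore proteins, spindle motors and microtubule-associated proteins, condensin subunits, cytokinesis proteins and the transcription factors and proliferation markers that go with them. They were chosen by gene symbol, and all 55 were found among the 58174 genes listed in each of the deposited tables of Hep-G2 and BE(2)-C cells. Poly-A-enriched RNA of these tumor cell lines was sequenced to ask which transcripts change when the RNA-binding protein IGF2BP1 is depleted. Hep-G2 is a line from a hepatoblastoma and BE(2)-C a line from a neuroblastoma. The 4 groups were Hep-G2 siC, Hep-G2 siI1, BE(2)-C siC and BE(2)-C siI1, with 3 libraries each, 12 in all, which the methods call biological replicates. Cells of the siC groups received a control siRNA with the sequence of a nematode microRNA, CEL-miR-239b. Cells of the siI1 groups received a paralogue-specific siRNA pool against IGF2BP1. All were harvested 72 h after transfection, and BE(2)-C cells received siRNA at a higher concentration than Hep-G2 cells. With 1 pool per target, loss of IGF2BP1 and any other effect of the pool cannot be told apart. Between 12852988 and 15721210 reads per library lay on genes.

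A dividing cell enters mitosis when cyclin B switches on the kinase CDK1, which CDC25 phosphatases activate and WEE1 restrains. Condensins compact the chromosomes, kinetochores built on CENP-A chromatin attach them to the spindle, and the checkpoint proteins hold back the anaphase-promoting complex until every chromosome is attached. Most of these genes are transcribed late in the cell cycle, under FOXM1, the B-MYB protein that MYBL2 encodes and the MuvB complex, so their transcripts are abundant in proliferating tumor cells, while IGF2BP1 is an oncofetal protein known for protecting bound mRNAs from decay.

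The targeted gene was read first. IGF2BP1 (ENSG00000159217, chromosome 17) stood at 48.5, 46.6 and 50.8 FPKM, fragments scaled to gene length and library size, in the Hep-G2 siC libraries and at 12.6, 10.7 and 10.7 FPKM in the siI1 libraries. The siC libraries of BE(2)-C held 21.3, 20.6 and 21.6 FPKM and the siI1 libraries 4.85, 4.75 and 4.87 FPKM. Every library labelled siI1 thus lay far below every library labelled siC of its line. On the scale of log2(FPKM + 0.1), which understates the change of low genes, IGF2BP1 changed by -2.10 (SE 0.079; limma adjusted p 7.83e-06) in Hep-G2 and by -2.11 (SE 0.048; adjusted p 1.49e-05) in BE(2)-C.

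The labels of the lines were checked against 8 hepatic markers and against noradrenergic neuroblastoma markers. Summed over the hepatic list, Hep-G2 libraries held 7574, 7529 and 7501 FPKM with siC and 12020, 13530 and 13710 FPKM with siI1, with ALB the most abundant gene and no marker at 0, while BE(2)-C libraries held at most 0.434 FPKM. MYCN, the most abundant neuroblastoma marker, held 1688, 1620 and 1671 FPKM with siC and 1880, 1855 and 1955 FPKM with siI1 in BE(2)-C libraries. Hep-G2 thus carried the hepatic markers, and all 8 lay below 1 FPKM in every BE(2)-C library. The markers moved with siI1 in both directions. In Hep-G2, AFP and TTR were lower and ALB, APOA1, SERPINA1 and HNF4A higher, and in BE(2)-C, PHOX2A, HAND2 and DBH were lower and CHGA higher. Their part in the changes of the mitotic genes was not tested.

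All 55 mitotic genes passed the filter of at least 0.1 FPKM in 3 of the 6 libraries of a line, in both lines. A gene is called here when limma's adjusted p, taken over all genes tested, lies below 0.05. In Hep-G2, 36 of the 55 were lower with siI1, against 23.0% of the 19436 genes tested, and 2 were higher, WEE1 and MYBL2, against 21.9%. In BE(2)-C, 37 of the 55 were lower, against 14.8% of the 18656 genes tested, and limma called none higher, against 13.3%, nor was any higher at an unadjusted p below 0.05. All 55 are protein-coding, and in fits of protein-coding genes alone 38 were lower in Hep-G2, against a higher background of 34.0%, and 42 in BE(2)-C, against 25.0%. The median log2 fold change of the 55 was -0.46 in Hep-G2, beside 0.007 over all genes tested, and -0.39 in BE(2)-C, beside 0.016. Every siI1 library lay below every siC library for 39 genes in Hep-G2, against 27.8% of all genes tested, and for 41 genes in BE(2)-C, against 22.4%. In both lines 24 genes were lower, against 6.60% of the 15362 genes tested in both. Summed over the 55, Hep-G2 libraries held 591, 579.7 and 582 FPKM with siC and 455, 466 and 441 FPKM with siI1, and BE(2)-C libraries 2007, 1994 and 1946 FPKM with siC and 1409, 1393 and 1372 FPKM with siI1. The groups therefore did not overlap in this sum in either line. In RNA from a whole culture, fewer cells in mitosis and less of these RNAs per cell cannot be told apart.

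**Figure D1:**
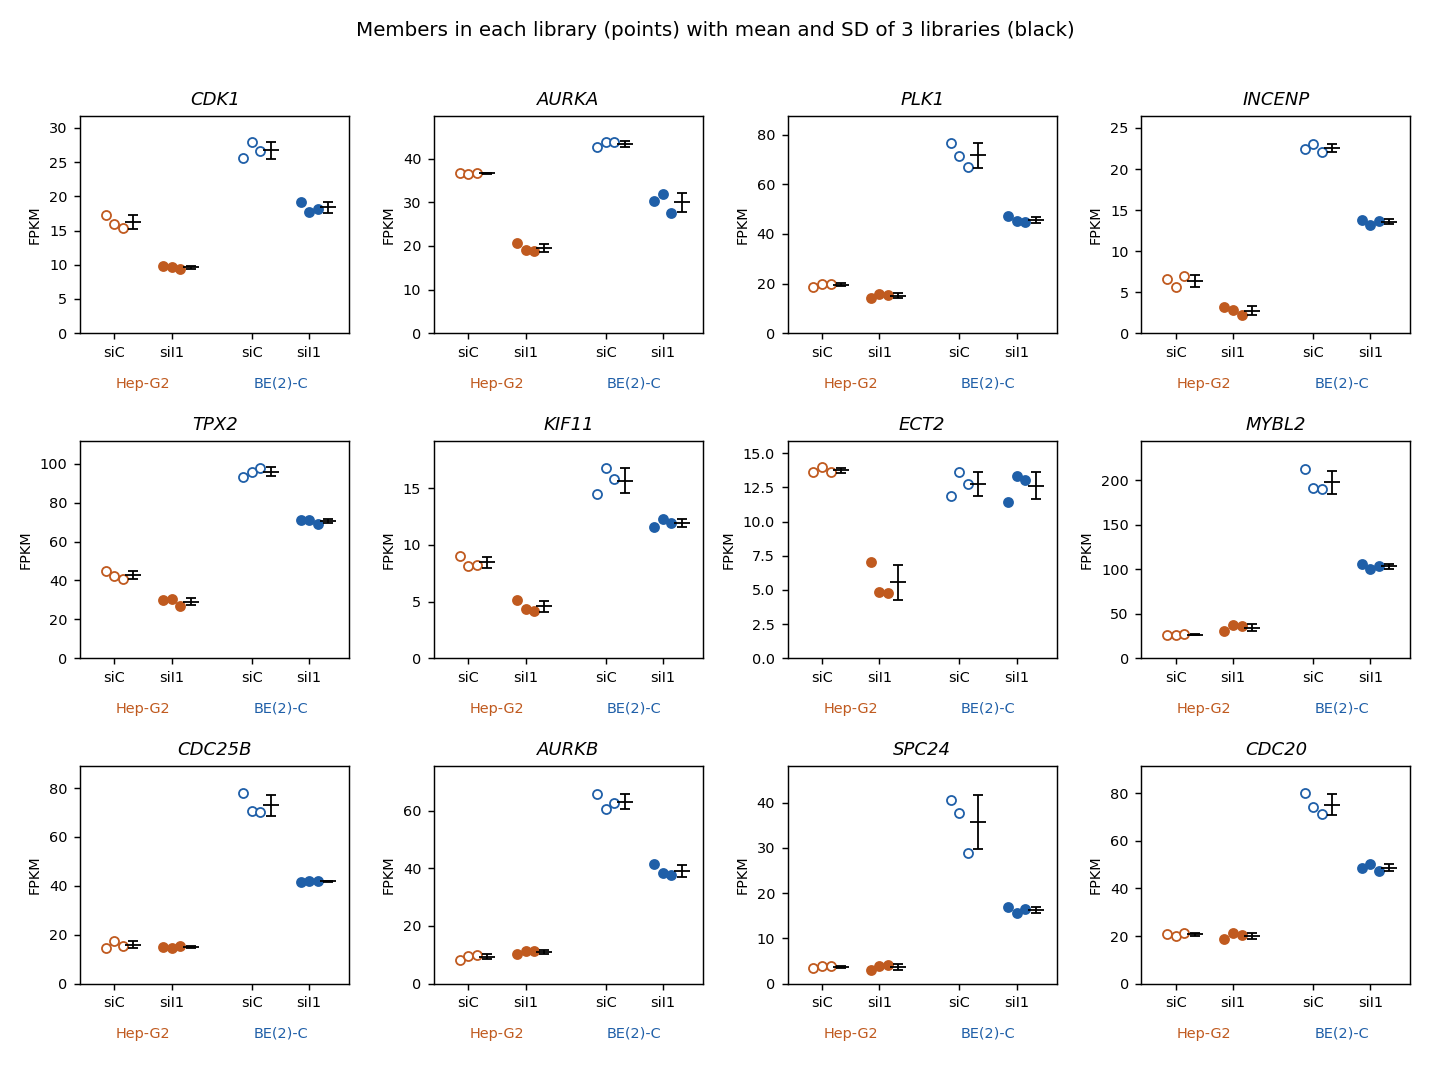
FPKM (vertical axes, from 0) of 12 mitotic genes in each library, as open points for siC and filled points for siI1, with the mean and SD of 3 libraries in black. CDK1, AURKA, PLK1, INCENP, TPX2 and KIF11 lie lower with siI1 in both lines, ECT2 falls in Hep-G2 from a mean of 13.8 to 5.56 FPKM while its groups overlap in BE(2)-C, and MYBL2 falls in BE(2)-C from 197.8 to 103 FPKM while it rises in Hep-G2.

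The promoters of the genes were read for sequence that the choice by name had not used. In the RefSeq promoter table of build GRCh38.p14, 47 of the 55 genes had a window of 250 bases before to 50 bases after a start, in 61 windows; AURKA, BUB3, TTK, WEE1, FOXM1, TPX2, BIRC5 and UBE2C are named only. The letters TTTGAA or TTTAAA on either strand, those of the cell cycle genes homology region (CHR) to which MuvB binds, occurred in 39 of the 47 genes (83.0%) and in 27.9% of all 27305 genes in the table. CCAAT on either strand, the letters bound by NF-Y, occurred in 37 (78.7%) against 39.7%. Both occurred in 1 window for 28 genes (59.6%) against 11.2% of all genes. The E2F-type letters TTTGGCGC or TTTCCCGC on either strand occurred in 2 (4.26%) against 2.75%. Only these exact letters were searched, so other forms of E2F site were not counted and their share was not tested. CHR letters lay within 50 bases before a start in 24 genes, and CCAAT lay 40 to 120 bases before one in 32. By windows, 70.5% of the 61 held CHR letters against 24.0% of all 35116 windows. Of the 19 genes with a window that were lower in both lines, 16 held CHR letters and 17 CCAAT, and of the other 28, 23 and 20 did. A match is a description of letters and not a bound site.

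The 150 bases before the start of 6 genes are printed, all on the plus strand of GRCh38.p14 as RefSeq gives them, with the CHR and CCAAT letters of either strand in capitals. CCNB1 (chr5:69167000-69167149), PLK1 (chr16:23678739-23678888) and KIF11 (chr10:92592980-92593129) stand for genes lower in both lines, ECT2 (chr3:172750576-172750725) for one that fell in Hep-G2, CDC20 (chr1:43358831-43358980) for one that fell in BE(2)-C, and MYBL2 (chr20:43666964-43667113) for the gene called in opposite directions.
CCNB1: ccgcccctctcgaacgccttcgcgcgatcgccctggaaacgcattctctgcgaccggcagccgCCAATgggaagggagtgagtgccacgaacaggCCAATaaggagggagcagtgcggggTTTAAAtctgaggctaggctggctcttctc
PLK1: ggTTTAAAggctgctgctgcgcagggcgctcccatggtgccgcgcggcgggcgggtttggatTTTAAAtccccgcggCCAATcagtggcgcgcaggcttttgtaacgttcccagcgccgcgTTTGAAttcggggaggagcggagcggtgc
KIF11: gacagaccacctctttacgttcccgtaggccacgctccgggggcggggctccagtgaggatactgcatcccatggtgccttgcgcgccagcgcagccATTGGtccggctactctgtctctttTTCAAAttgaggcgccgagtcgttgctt
ECT2: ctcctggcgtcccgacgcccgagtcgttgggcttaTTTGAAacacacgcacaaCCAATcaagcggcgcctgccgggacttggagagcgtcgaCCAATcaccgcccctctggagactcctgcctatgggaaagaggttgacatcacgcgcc
CDC20: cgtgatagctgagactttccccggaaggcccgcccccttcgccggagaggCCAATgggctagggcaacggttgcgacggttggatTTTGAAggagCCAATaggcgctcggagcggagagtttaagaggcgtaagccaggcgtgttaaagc
MYBL2: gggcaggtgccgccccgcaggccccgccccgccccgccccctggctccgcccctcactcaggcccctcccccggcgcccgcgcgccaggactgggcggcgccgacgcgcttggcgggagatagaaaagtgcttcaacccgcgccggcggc
In CCNB1 and KIF11 the CHR letters began 30 and 28 bases before the start, with the nearest CCAAT 55 and 53 bases before it. PLK1 held 3 CHR matches, the nearest 29 bases before the start, and a CCAAT 73 bases before it. CDC20 held CHR letters 65 bases and CCAAT 100 and 55 bases before its start. ECT2 held CHR letters 115 bases and CCAAT 97 and 58 bases before this start, which is 1 of its 2 starts in the table. Neither set of letters nor the exact E2F-type letters TTTGGCGC or TTTCCCGC occurred in the MYBL2 stretch. Other forms of E2F site were not searched for in it.

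Of the 13 genes for mitotic entry kinases, cyclins and phosphatases, 9 were lower in each line. The median log2 fold change was -0.38 for Hep-G2 cells and -0.34 for BE(2)-C cells, and WEE1 was the 1 called higher, in Hep-G2. AURKA (ENSG00000087586, chromosome 20), the centrosomal kinase that activates PLK1 with the help of BORA, held 36.7, 36.6 and 36.8 FPKM with siC and 20.6, 19.1 and 19.0 FPKM with siI1 in Hep-G2. The BE(2)-C libraries held 42.6, 43.8 and 43.8 FPKM with siC and 30.4, 31.9 and 27.6 FPKM with siI1. The groups were far apart in both lines, and in Hep-G2 the siC libraries differed by less than 1 FPKM. AURKA fell by 0.91 on the log2 scale in Hep-G2 (SE 0.051; limma adjusted p 2.90e-05) and by 0.54 in BE(2)-C (SE 0.060; adjusted p 0.00112). PLK1 (ENSG00000166851, chromosome 16), the kinase of centrosome maturation and spindle assembly, read 18.7, 20.0 and 20.0 FPKM with siC and 14.3, 15.9 and 15.3 FPKM with siI1 in Hep-G2. The BE(2)-C libraries read 76.6, 71.5 and 66.8 FPKM with siC and 47.1, 45.1 and 44.8 FPKM with siI1. No siI1 library reached a siC library, and the log2 fold change was -0.36 (SE 0.061; limma adjusted p 0.00299) in Hep-G2 and -0.65 (SE 0.058; adjusted p 0.000519) in BE(2)-C. CDK1, the kinase that drives entry itself, went from 17.3, 15.98 and 15.4 FPKM to 9.86, 9.66 and 9.40 FPKM in Hep-G2, and from 25.6, 28.0 and 26.6 FPKM to 19.2, 17.7 and 18.2 FPKM in BE(2)-C. Its groups were separate in both lines, with log2 fold changes of -0.74 (SE 0.063; limma adjusted p 0.000140) and -0.54 (SE 0.053; adjusted p 0.000756).

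Other genes of mitotic entry differed by line. BORA, the activator of Aurora A, held 3.31, 3.82 and 3.68 FPKM with siC and 1.85, 2.22 and 2.25 FPKM with siI1 in Hep-G2, but 2.905, 3.69 and 3.03 FPKM with siC and 3.81, 3.22 and 3.70 FPKM with siI1 in BE(2)-C. NEK2, a kinase that separates centrosomes, held 5.37, 5.33 and 5.94 FPKM with siC and 3.65, 3.24 and 3.21 FPKM with siI1 in Hep-G2 and 7.76, 9.55 and 8.53 FPKM with siC and 8.23, 8.27 and 7.72 FPKM with siI1 in BE(2)-C. For both, the groups were apart in Hep-G2 and overlapped in BE(2)-C. The log2 fold change in Hep-G2 was -0.75 for BORA (SE 0.12; limma adjusted p 0.00216) and -0.70 for NEK2 (SE 0.090; adjusted p 0.000872). CDC25B, a phosphatase that activates CDK1, stood at 14.7, 17.4 and 15.6 FPKM with siC and 14.8, 14.6 and 15.3 FPKM with siI1 in Hep-G2, and at 77.8, 70.5 and 70.4 FPKM with siC and 41.4, 42.1 and 41.9 FPKM with siI1 in BE(2)-C. Here the groups overlapped in Hep-G2 and were far apart in BE(2)-C, where CDC25B fell by 0.80 on the log2 scale (SE 0.050; limma adjusted p 0.000196). In Hep-G2 the value for CDC25B was -0.089 (adjusted p 0.361), 0.003 with libraries centred on their medians, and -0.26, called, with libraries scaled to equal sums of FPKM, a scaling that moved the median of all genes in Hep-G2 from 0.007 to -0.15. WEE1, which restrains CDK1, held 3.83, 3.14 and 3.29 FPKM with siC and 4.85, 4.90 and 4.83 FPKM with siI1 in Hep-G2, with every siI1 library above every siC library and a log2 fold change of 0.50 (SE 0.095; limma adjusted p 0.00514).

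The cyclins, the other CDC25 phosphatases and PLK4 completed the group of mitotic entry. CCNB1, the B-type cyclin with the highest level in either line, changed on the log2 scale by -0.40 in Hep-G2 (SE 0.059; limma adjusted p 0.00166) and -0.34 in BE(2)-C (SE 0.046; adjusted p 0.00258). CCNB2 and CCNA2 were lower in BE(2)-C, at -0.33 and -0.27, and were not called in Hep-G2, at -0.17 and -0.071. CDC25A and CDC25C were lower in both lines, CDC25A at -0.32 (Hep-G2) and -0.42 (BE(2)-C) and CDC25C at -0.38 (Hep-G2) and -0.55 (BE(2)-C). PLK4, the kinase of centriole duplication, was lower in Hep-G2 at -0.57 and not called in BE(2)-C at -0.21. WEE1 in BE(2)-C had -0.026, not called.

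Among the 4 transcription factors and proliferation markers, MYBL2 was the 1 gene of the 55 called in opposite directions, a pattern that 5.82% of the 15362 genes tested in both lines had. MYBL2 (ENSG00000101057, chromosome 20) held 26.7, 26.1 and 27.4 FPKM with siC and 30.4, 37.1 and 36.1 FPKM with siI1 in Hep-G2. In BE(2)-C it was the most abundant of the 55 after UBE2C in siC libraries, with 213, 191 and 190.1 FPKM with siC and 106, 100.5 and 103 FPKM with siI1. Every siI1 library lay above every siC library in Hep-G2 and below it in BE(2)-C. The log2 fold change was 0.36 (SE 0.082; limma adjusted p 0.0106) in Hep-G2 and -0.93 (SE 0.057; adjusted p 0.000169) in BE(2)-C. FOXM1, which drives transcription of genes for G2 and M phase, was lower in both lines, at -0.24 (adjusted p 0.0120) and -0.51 (adjusted p 0.000735) by limma. MKI67, which codes for the Ki-67 antigen, was also lower in both, at -0.55 in Hep-G2 and -0.18 in BE(2)-C. TOP2A, the topoisomerase that untangles sister chromatids, was called in neither line, at -0.027 in Hep-G2 and -0.15 in BE(2)-C, with overlapping groups in both.

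The chromosomal passenger complex holds Aurora B on centromeres and corrects faulty attachments. All 4 of its genes were lower in BE(2)-C (median -0.66) and 2 were lower in Hep-G2 (median -0.26). AURKB (ENSG00000178999, chromosome 17), its kinase, held 65.8, 60.6 and 62.7 FPKM with siC and 41.4, 38.3 and 37.6 FPKM with siI1 in BE(2)-C, but 8.34, 9.49 and 10.0 FPKM with siC and 10.2, 11.4 and 11.2 FPKM with siI1 in Hep-G2. The groups were apart in both lines, with siI1 lower in BE(2)-C and above siC in Hep-G2. The log2 fold change was -0.69 in BE(2)-C (SE 0.054; limma adjusted p 0.000334), while the Hep-G2 value of 0.23 was not called (SE 0.086; adjusted p 0.0662). That value was called with libraries centred on their medians (0.33), with a replicate block, among protein-coding genes alone and without siI1 replicate 1 (0.28). It was smaller, and not called, with equal sums of FPKM (0.067), with the slope over gene length taken off (0.073) and without siC replicate 1 (0.16). INCENP, the scaffold of the complex, went from 6.61, 5.58 and 7.02 FPKM to 3.22, 2.87 and 2.17 FPKM in Hep-G2 and from 22.4, 23.1 and 22.1 FPKM to 13.8, 13.2 and 13.7 FPKM in BE(2)-C. The groups were separate in both lines, and INCENP fell by 1.20 on the log2 scale in Hep-G2 (SE 0.16; limma adjusted p 0.00110) and by 0.73 in BE(2)-C (SE 0.043; adjusted p 0.000167).

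BIRC5, which codes for survivin, the subunit that binds centromeric histone marks, held 74.8, 70.9 and 72.8 FPKM with siC and 48.3, 46.01 and 46.2 FPKM with siI1 in BE(2)-C, and 18.0, 19.2 and 19.0 FPKM with siC and 13.5, 17.0 and 16.2 FPKM with siI1 in Hep-G2. The groups were apart in both lines, widely in BE(2)-C. Its log2 fold change was -0.64 in BE(2)-C (SE 0.042; limma adjusted p 0.000219) and -0.27 in Hep-G2 (SE 0.092; adjusted p 0.0491). The Hep-G2 call was lost without siC replicate 1 (-0.30), siC replicate 2 (-0.25), siC replicate 3 (-0.26) or siI1 replicate 3 (-0.30), and with median centring (-0.18), a pseudocount of 0.01, no filter on low values or no mean-variance trend. It held without siI1 replicate 1, at a smaller -0.17, and with equal sums of FPKM, at -0.44. CDCA8, which codes for borealin, was lower in BE(2)-C at -0.59 and not called in Hep-G2 at -0.24.

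Spindle assembly checkpoint genes were lower in both lines apart from TTK in Hep-G2: 4 of 5 in Hep-G2, with a median of -0.54, and 5 of 5 in BE(2)-C, with a median of -0.30. BUB3, which docks the checkpoint kinases on kinetochores, held 27.9, 28.2 and 28.1 FPKM with siC and 20.0, 20.0 and 18.6 FPKM with siI1 in Hep-G2, and 22.2, 22.8 and 23.8 FPKM with siC and 21.2, 19.8 and 20.0 FPKM with siI1 in BE(2)-C. The gap between groups was wide in Hep-G2 and narrow in BE(2)-C. BUB3 fell by 0.52 on the log2 scale in Hep-G2 (SE 0.051; limma adjusted p 0.000254) and by 0.17 in BE(2)-C (SE 0.049; adjusted p 0.0366). The BE(2)-C call was lost without siC replicate 2 (-0.18), siC replicate 3 (-0.15), siI1 replicate 2 (-0.16) or siI1 replicate 3 (-0.16), with median centring (-0.14), with equal sums of FPKM (-0.16), with a replicate block and with no mean-variance trend. The kinase BUB1, its relative BUB1B and MAD2L1, which binds and holds CDC20, were all called: Hep-G2 cells had -0.69, -0.81 and -0.54, and BE(2)-C cells -0.31, -0.30 and -0.51. TTK, the kinase that starts checkpoint signalling, was lower in BE(2)-C at -0.27 and had -0.29 in Hep-G2, not called, with overlapping groups.

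Anaphase onset needs CDC20, which activates the anaphase-promoting complex, the ubiquitin-conjugating enzyme UBE2C, and the separase ESPL1 with its inhibitor PTTG1, while SGO1 guards centromeric cohesion. All 5 genes were lower in BE(2)-C (median -0.61) and 2, PTTG1 and SGO1, were lower in Hep-G2 (median -0.35). CDC20 held 80.2, 74.5 and 71.2 FPKM with siC and 48.5, 50.2 and 47.3 FPKM with siI1 in BE(2)-C, and 20.8, 20.0 and 21.5 FPKM with siC and 18.7, 21.1 and 20.52 FPKM with siI1 in Hep-G2. UBE2C, the most abundant of the 55 in BE(2)-C with siC or siI1, held 227, 207 and 198 FPKM with siC and 144, 132 and 132 FPKM with siI1 there, and 29.1, 26.9 and 25.7 FPKM with siC and 22.9, 27.5 and 26.5 FPKM with siI1 in Hep-G2. For both, the groups were far apart in BE(2)-C and overlapped in Hep-G2. The log2 fold change in BE(2)-C was -0.63 for CDC20 (SE 0.054; limma adjusted p 0.000477) and -0.63 for UBE2C (SE 0.066; adjusted p 0.000874). Their Hep-G2 values, -0.047 and -0.088, were not called and depended on the scaling: 0.046 and 0.004 with median centring, and -0.21 and -0.26, both called, with equal sums of FPKM. Without siI1 replicate 1, CDC20 had 0.005 in Hep-G2. PTTG1, which codes for securin, went from 13.9, 16.7 and 13.9 FPKM to 8.93, 10.4 and 10.0 FPKM in Hep-G2 and from 84.8, 82.3 and 79.0 FPKM to 54.7, 52.2 and 54.5 FPKM in BE(2)-C. With separate groups in both lines, PTTG1 changed on the log2 scale by -0.60 in Hep-G2 (SE 0.096; limma adjusted p 0.00249) and -0.61 in BE(2)-C (SE 0.044; adjusted p 0.000285). SGO1, at 1.53 FPKM with siC in Hep-G2 and 2.26 FPKM in BE(2)-C, had -0.61 and -0.43, both called, and ESPL1 had -0.51 in BE(2)-C, called, and -0.35 in Hep-G2, not called.

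Of the 7 centromere and kinetochore genes, 2 were lower in Hep-G2, CENPF and NDC80, near the 23.0% among all genes, with a median of -0.27. SPC24 was the 1 lower in BE(2)-C, near the 14.8% among all genes, with a median of -0.22 for the 7. In that line every siI1 library lay below every siC library for 5 of the 7, the 4 others being CENPA, NDC80, NUF2 and SPC25, against 22.4% of all genes. NDC80, NUF2, SPC24 and SPC25 code for the NDC80 complex that grips microtubules. SPC24 held 40.5, 37.8 and 28.9 FPKM with siC and 16.9, 15.6 and 16.6 FPKM with siI1 in BE(2)-C, and 3.45, 3.80 and 3.85 FPKM with siC and 2.97, 3.82 and 4.19 FPKM with siI1 in Hep-G2. The BE(2)-C siC replicate 3 lay below the other siC libraries yet above every siI1 library, while the groups overlapped in Hep-G2. SPC24 fell by 1.11 on the log2 scale in BE(2)-C (SE 0.12; limma adjusted p 0.00102), more than any other of the 55 in that line. The Hep-G2 value was -0.027, not called, and was 0.064 with median centring, 0.002 without siC replicate 3 and 0.11 without siI1 replicate 1. CENPF, a kinetochore-associated protein of late cell cycle, had -0.82 in Hep-G2, called (SE 0.14; limma adjusted p 0.00327), and -0.22 in BE(2)-C, not called. NDC80 had -0.61 in Hep-G2, called, and -0.30 in BE(2)-C, not called. The histone variant gene CENPA, the motor gene CENPE, NUF2 and SPC25 were called in neither line. SPC25 was read from as few as 17 reads in a Hep-G2 library and 53 in a BE(2)-C library, and its log2 fold change had an interval from -1.31 to 1.38 in Hep-G2.

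Spindle motors and microtubule-associated proteins were lower for 8 of 10 genes in Hep-G2, with a median of -0.53, and 7 of 10 in BE(2)-C, with a median of -0.40. TPX2, which brings Aurora A to the spindle and was the most abundant of the 55 in Hep-G2 with siC, held 44.8, 42.2 and 40.8 FPKM with siC and 29.8, 30.5 and 27.0 FPKM with siI1 there, and 93.4, 95.9 and 97.9 FPKM with siC and 70.8, 71.0 and 69.1 FPKM with siI1 in BE(2)-C. KIF11, the motor that pushes spindle poles apart, held 9.04, 8.14 and 8.22 FPKM with siC and 5.16, 4.38 and 4.22 FPKM with siI1 in Hep-G2 and 14.5, 16.7 and 15.8 FPKM with siC and 11.6, 12.3 and 11.9 FPKM with siI1 in BE(2)-C. Neither gene had overlapping groups in either line. TPX2 changed on the log2 scale by -0.55 in Hep-G2 (SE 0.066; limma adjusted p 0.000665) and -0.44 in BE(2)-C (SE 0.039; adjusted p 0.000488). KIF11 had -0.87 (SE 0.096; limma adjusted p 0.000445) and -0.39 (SE 0.064; adjusted p 0.00505). KIF4A, a motor of chromosome arms and the central spindle, went from 7.69, 6.98 and 6.61 FPKM to 3.79, 4.08 and 3.66 FPKM in Hep-G2 and from 15.4, 16.7 and 15.5 FPKM to 11.7, 12.02 and 11.8 FPKM in BE(2)-C. Its groups were separate in both lines, at -0.87 (SE 0.086; limma adjusted p 0.000282) and -0.42 (SE 0.050; adjusted p 0.00152).

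KIF2C, a kinesin that removes tubulin from microtubule ends, held 24.3, 21.6 and 22.8 FPKM with siC and 14.8, 13.9 and 14.2 FPKM with siI1 in BE(2)-C, and 7.03, 7.73 and 8.16 FPKM with siC and 6.11, 7.23 and 6.59 FPKM with siI1 in Hep-G2. The groups were apart in BE(2)-C and overlapped in Hep-G2. KIF2C fell by 0.68 on the log2 scale in BE(2)-C (SE 0.058; limma adjusted p 0.000463), and its Hep-G2 value of -0.20 was not called, but was with equal sums of FPKM (-0.37). KIF20A, a motor of the central spindle, had -0.52 in BE(2)-C, called, and -0.14 in Hep-G2, not called. KIF23, ASPM and HMMR were lower in Hep-G2, at -0.55, -0.52 and -0.40, and were not called in BE(2)-C, at -0.27, 0.026 and -0.040. PRC1, which bundles antiparallel microtubules, and DLGAP5, a stabiliser of kinetochore fibres, were lower in both lines, PRC1 at -0.58 (Hep-G2) and -0.51 (BE(2)-C) and DLGAP5 at -0.46 (Hep-G2) and -0.25 (BE(2)-C).

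All 3 cytokinesis genes were lower in Hep-G2, with a median of -0.64, and 1 in BE(2)-C, with a median of -0.017. ECT2 (ENSG00000114346, chromosome 3), the exchange factor that activates RhoA at the cleavage furrow, held 13.7, 13.98 and 13.7 FPKM with siC and 7.03, 4.87 and 4.78 FPKM with siI1 in Hep-G2. Libraries of BE(2)-C held 11.9, 13.6 and 12.8 FPKM with siC and 11.5, 13.3 and 13.1 FPKM with siI1. Every siI1 library of Hep-G2 lay far below siC, with replicate 1 nearest to it, and the groups of BE(2)-C overlapped. ECT2 fell by 1.32 on the log2 scale in Hep-G2 (SE 0.15; limma adjusted p 0.000475), more than any other of the 55 in that line. Its BE(2)-C value was -0.017, not called, and crossed 0 to 0.022 with median centring, 0.003 with equal sums of FPKM, 0.031 without siC replicate 2 and 0.050 without siI1 replicate 1. ANLN, which codes for the furrow protein anillin, had -0.64 in Hep-G2, called, and -0.009 in BE(2)-C, not called. CIT, the citron kinase of the midbody, was lower in both lines, at -0.56 and -0.29.

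The 4 condensin genes were all lower in Hep-G2, with a median of -0.59, and 2 were lower in BE(2)-C, with a median of -0.24. NCAPG, a subunit of condensin I, held 6.82, 7.04 and 7.25 FPKM with siC and 4.24, 4.73 and 3.94 FPKM with siI1 in Hep-G2 and 16.2, 18.4 and 17.9 FPKM with siC and 11.8, 12.8 and 12.9 FPKM with siI1 in BE(2)-C. NCAPH, the kleisin of condensin I, held 17.4, 18.5 and 18.0 FPKM with siC and 12.3, 11.6 and 12.3 FPKM with siI1 in BE(2)-C and 8.66, 7.79 and 7.90 FPKM with siC and 6.09, 6.52 and 5.89 FPKM with siI1 in Hep-G2. The groups of both genes were apart in both lines. NCAPG changed on the log2 scale by -0.70 in Hep-G2 (SE 0.086; limma adjusted p 0.000749) and -0.48 in BE(2)-C (SE 0.066; adjusted p 0.00248). NCAPH had -0.39 (SE 0.074; limma adjusted p 0.00500) and -0.57 (SE 0.050; adjusted p 0.000488). The ATPase genes SMC2 and SMC4, which serve both condensins, were lower in Hep-G2 at -0.65 and -0.53 and not called in BE(2)-C at 0.084 and 0.013.

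**Figure D2:**
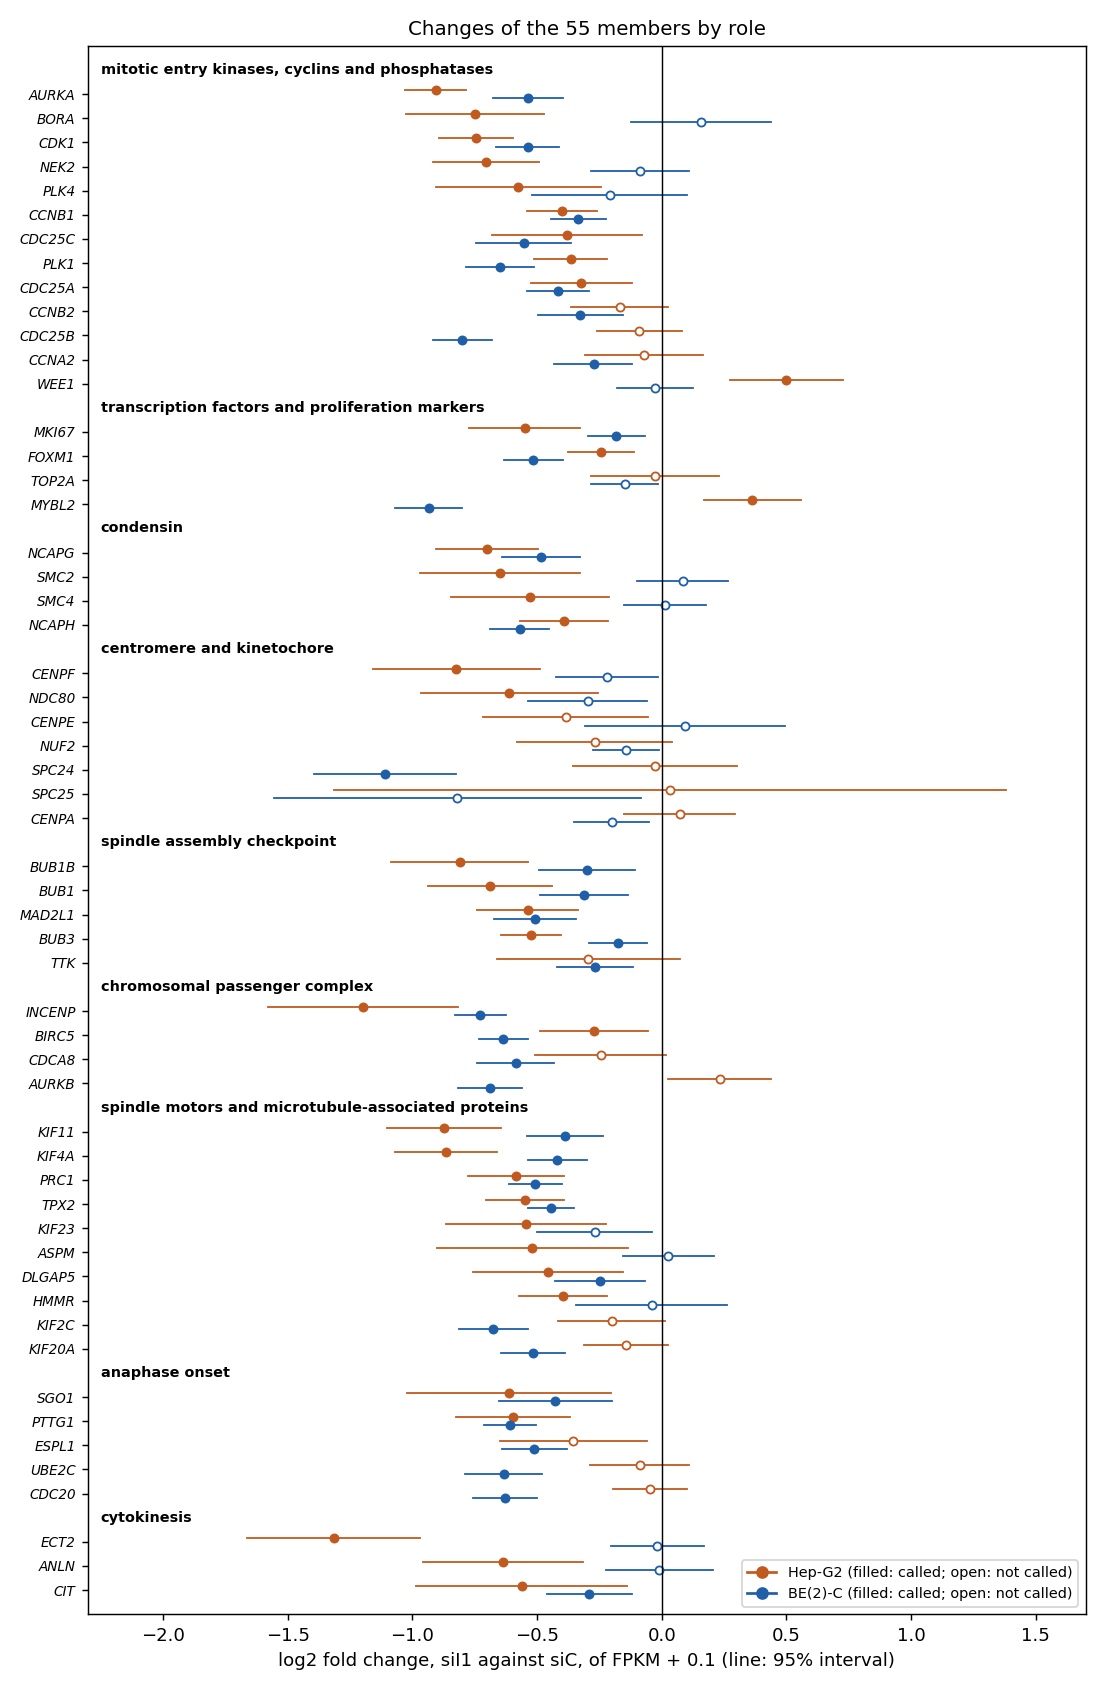
Log2 fold change of FPKM + 0.1 (horizontal axis) with its 95% interval for each of the 55 genes, grouped by role, in Hep-G2 (orange) and BE(2)-C (blue), filled where limma called the change. Filled points lie below 0 in both lines except WEE1 at 0.50 and MYBL2 at 0.36 in Hep-G2.

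Whether the lines differed was tested per gene in 1 fit of all 12 libraries, as the change in Hep-G2 minus that in BE(2)-C. Of the 55 genes, 28 were called: 16 with the change lower in Hep-G2, against 21.7% of the 15362 genes tested, and 12 with it higher, against 18.5%. Those shares, unlike those of the lower genes within each line, lay near the background. Among protein-coding genes alone, 29 of the 55 were called, against 55.2% of the 11084 tested, so the mitotic genes differed between the lines no more often than other such genes. ECT2 had the most negative difference, -1.30 (SE 0.18; limma adjusted p 0.000177), followed by BORA at -0.90 (SE 0.17; adjusted p 0.00133). SMC2, ANLN, NEK2 and CENPF had -0.73, -0.63, -0.62 and -0.60. BUB3 had -0.35 (SE 0.068; limma adjusted p 0.00185), a difference that shrank to -0.15 and was not called with the slope over gene length taken off. MYBL2 stood at the other end with 1.30 (SE 0.10; limma adjusted p 3.91e-06), followed by SPC24 at 1.08 (SE 0.19; adjusted p 0.000975) and AURKB at 0.92 (SE 0.10; adjusted p 4.48e-05). CDC25B had 0.71 (SE 0.089; limma adjusted p 9.56e-05), CDC20 had 0.58 (SE 0.084; adjusted p 0.000261) and UBE2C had 0.54 (SE 0.11; adjusted p 0.00248).

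Both Aurora kinases were among the genes that differed, in opposite directions: AURKA at -0.37 and AURKB at 0.92. PLK1 had 0.28, with the larger fall in BE(2)-C. Of the 24 genes lower in both lines, 11 were called in this test, against 44.9% of all genes with that pair of calls. Of the 12 lower in Hep-G2 and not called in BE(2)-C, 8 were called, ANLN, ASPM, BORA, CENPF, ECT2, NEK2, SMC2 and SMC4, against 72.4% of all such genes. Of the 12 lower in BE(2)-C and not called in Hep-G2, 7 were called, AURKB, CDC20, CDC25B, KIF20A, KIF2C, SPC24 and UBE2C, against 54.7% of all such genes. For the remaining genes of these groups, such as KIF23, a difference between the lines was not shown. The difference for IGF2BP1 itself was 0.016 (limma adjusted p 0.914), so the depletion was close to equal in the lines. At an adjusted p below 0.01, 18 of the 28 calls held, and 26.5% of all genes tested were called.

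**Figure D3:**
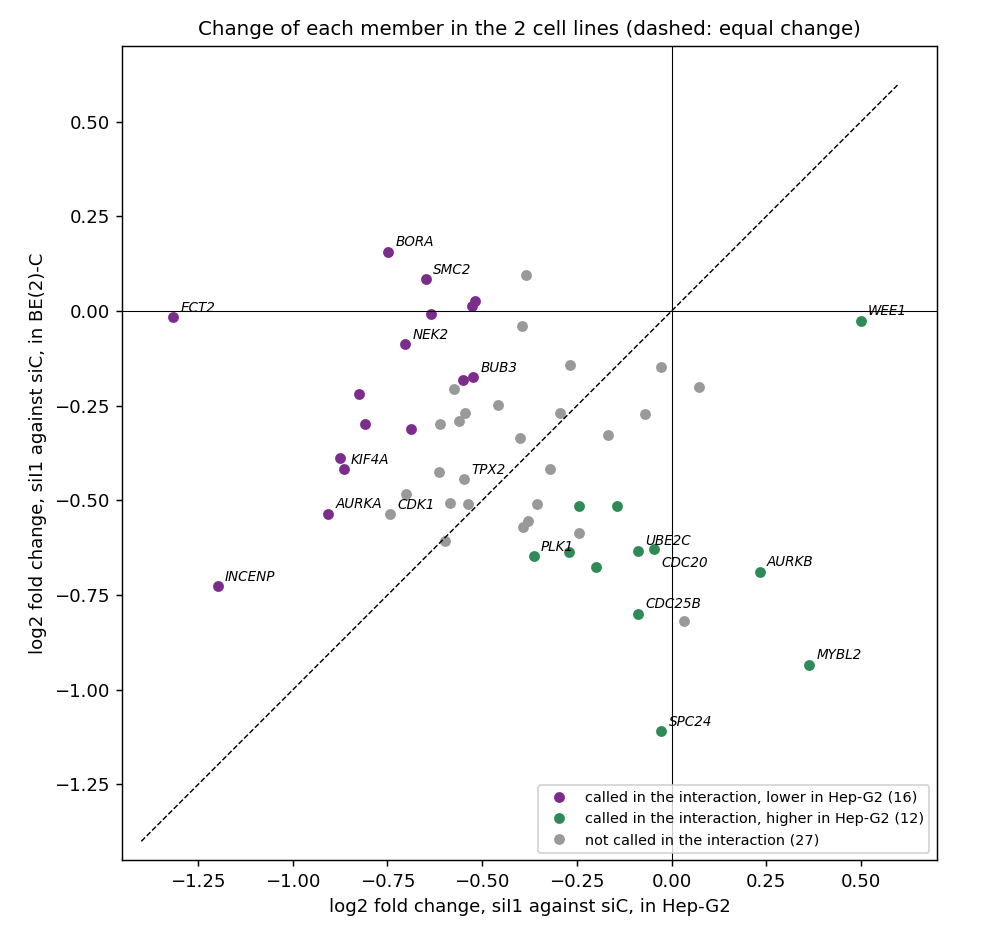
Log2 fold change of each of the 55 genes in Hep-G2 (horizontal axis) against that in BE(2)-C (vertical axis), coloured by the test of the difference between the lines. The 16 genes called lower in Hep-G2 lie above the dashed line of equal change, with ECT2 farthest from it, and the 12 called higher lie below it, with MYBL2 farthest.

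Gene length moved with the result in both lines, a pattern seen after the data were examined. Over all genes with at least 1 FPKM in every library of a line, split into 5 groups of equal size from short to long, the median log2 fold change was 0.19, 0.048, -0.064, -0.15 and -0.21 in Hep-G2. In BE(2)-C it was -0.062, -0.097, -0.033, -0.008 and 0.068, so the direction over length was the opposite. The slope in Hep-G2 was smaller in siI1 replicate 1, where the shortest group stood 0.082 above and the longest -0.087 against siC, than in replicate 2 (0.24 and -0.27) and replicate 3 (0.25 and -0.26). The 28 mitotic genes of up to 4117 bases had a median of -0.30 in Hep-G2, with 15 lower, and -0.53 in BE(2)-C, with 21 lower. The 27 longer ones had -0.55 in Hep-G2, with 21 lower, and -0.27 in BE(2)-C, with 16 lower.

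With the slope over length taken off each library, 38 of the 55 were lower and 2 higher in Hep-G2, with a median of -0.39, and 38 were lower in BE(2)-C, with the same median to 2 decimals. In Hep-G2, CIT and ASPM lost their call and CCNB2, CDC20, CDCA8 and UBE2C gained one, and in BE(2)-C, CCNA2 and DLGAP5 lost theirs and TOP2A, KIF23 and CENPF gained one. The genes that lost a call stayed below 0. CIT went from -0.562 to -0.385 and ASPM from -0.519 to -0.353 in Hep-G2. In BE(2)-C, CCNA2 went from -0.273 to -0.203 and DLGAP5 from -0.247 to -0.206. The test between the lines called 27 genes, of which 23 were among the 28. The calls lost were MKI67, which shrank from -0.37 to -0.062, BUB1 (-0.27), BUB3 (-0.15), ASPM (-0.28) and INCENP, which kept its size at -0.46. CDK1, CCNB1, PTTG1 (-0.26) and ESPL1 (0.37) gained a call. Differences that stayed called but shrank included CDC20 (0.58 to 0.31), UBE2C (0.54 to 0.25), CENPF (-0.60 to -0.32), SMC4 (-0.54 to -0.34) and AURKB (0.92 to 0.68). MYBL2 was called higher in Hep-G2 in this fit too, at 0.25, while AURKB had 0.073 there.

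**Figure D4:**
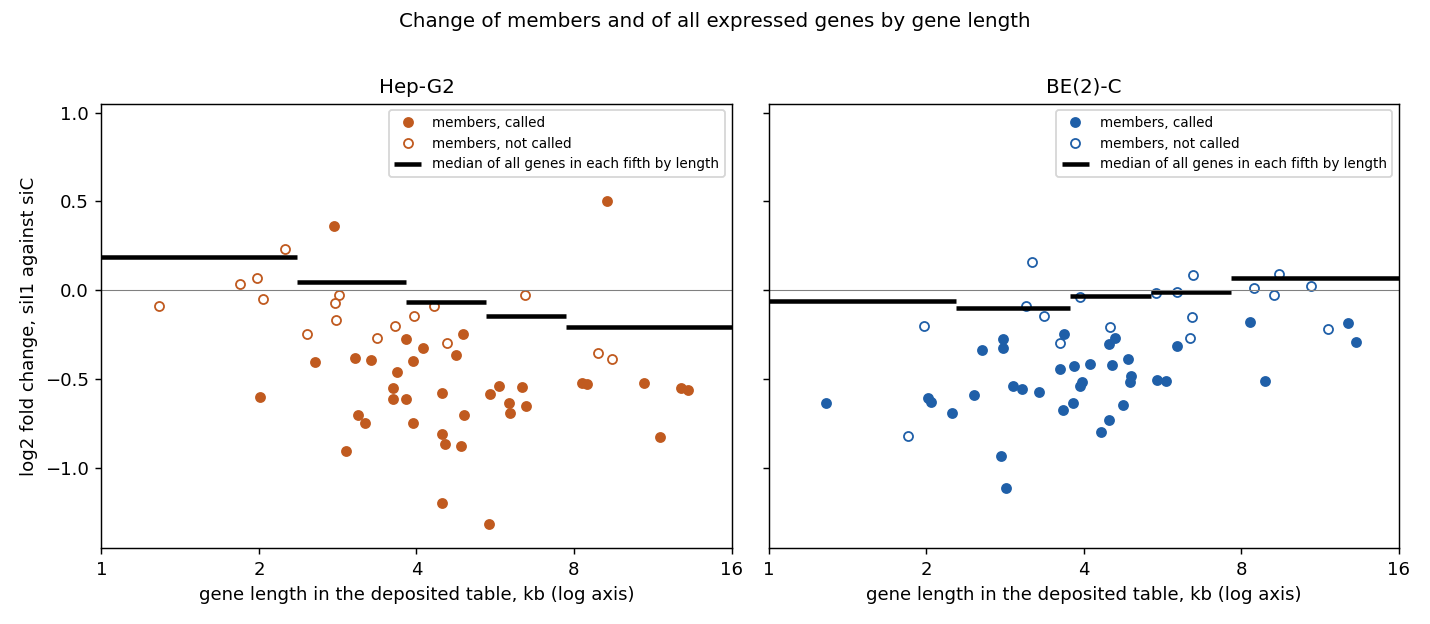
Log2 fold change (vertical axis) of the 55 genes against gene length in kilobases (log axis), filled where called, with black bars for the median of all genes with at least 1 FPKM in 5 groups of equal size by length. The bars fall from 0.19 to -0.21 with length in Hep-G2 and lie between -0.097 and 0.068 in BE(2)-C, and most of the 55 genes lie below the bar of their length in both lines.

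Other genes of mitosis were read as 8 lists of 110 genes in all. Their counts stand beside 23.0% lower and 21.9% higher among all genes tested in Hep-G2. For BE(2)-C these shares were 14.8% and 13.3%, and several of the counts lie near them. Of 18 genes of the constitutive centromere network and CENP-A loading, 6 were lower and 2 higher in Hep-G2 (median -0.16), and 5 lower in BE(2)-C (median -0.22). CENPO, CENPK and CENPL fell most in Hep-G2, at -0.82, -0.81 and -0.66, and CENPW, CENPN and CENPM in BE(2)-C, at -0.69, -0.54 and -0.52. Of 14 other genes of the outer kinetochore, 6 were lower and 3 higher in Hep-G2 (median -0.25), and 5 lower in BE(2)-C (median -0.18). ZWINT, which links the checkpoint to the KMN network, was lower in both lines, from a mean of 24.4 to 12.9 FPKM in Hep-G2 and from 47.9 to 27.8 FPKM in BE(2)-C, at -0.92 and -0.79. Other genes of the list followed, ZWILCH (-0.69) and SKA3 (-0.68) in Hep-G2 and SKA1 (-0.58) and KNTC1 (-0.30) in BE(2)-C.

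Cohesin and its regulators had 6 of 13 genes lower in Hep-G2 (median -0.44), with ESCO2, STAG1 and SMC1A at -0.75, -0.66 and -0.53. In BE(2)-C, 1 of the 13 was lower, CDCA5 at -0.50, and 3 higher, among them ESCO1 at 0.62 and STAG2 at 0.35. Of the 4 other condensin genes, NCAPG2 of condensin II was lower in both lines, at -0.88 and -0.43, NCAPH2 was lower in BE(2)-C at -0.61, and NCAPD2 was higher in Hep-G2 at 0.21 and lower in BE(2)-C at -0.28. The list of the anaphase-promoting complex and its regulators, with 17 genes, had 4 lower and 5 higher in Hep-G2 (median -0.036) and 2 lower in BE(2)-C (median -0.076), close to the shares among all genes. In it, FZR1, the activator that takes over from CDC20, was higher in Hep-G2, from a mean of 7.71 to 14.2 FPKM (0.87), ANAPC15 was higher at 0.53 and ANAPC1 lower at -0.55, while UBE2S and ANAPC16 were lower in BE(2)-C at -0.49 and -0.31.

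Of 26 other genes of the spindle and centrosome, 11 of the 25 tested were lower and 3 higher in Hep-G2 (median -0.25), and 10 of 26 were lower in BE(2)-C (median -0.20). KIF14 and KIF20B fell in Hep-G2 at -0.85 and -0.79 while HAUS5 rose at 0.79, and HAUS4, KIFC1 and SPAG5 fell in BE(2)-C at -1.22, -0.82 and -0.54. The MuvB core, pocket proteins and their E2F partners had 6 of 12 lower and 1 higher in Hep-G2 (median -0.39), and 2 lower and 3 higher in BE(2)-C (median -0.059). LIN52 of the MuvB core was lower in both lines, at -0.93 and -0.46, LIN54, its DNA-binding subunit, and RBL2 were lower in Hep-G2 at -0.78 and -0.79, and TFDP2 and E2F5 were higher in BE(2)-C at 0.59 and 0.54. In the Greatwall branch and CDK1 inhibition, 3 of 6 were lower in each line and 1 was higher in Hep-G2 (medians -0.26 and -0.35). ARPP19, which inhibits the phosphatase that opposes CDK1, fell from 36.1 to 14.2 FPKM in Hep-G2 (-1.35) and from 27.1 to 19.3 FPKM in BE(2)-C (-0.49). MASTL, the Greatwall kinase that acts on it, and PPP2R2A were lower in Hep-G2 at -0.38 and -0.55, and PKMYT1, a relative of WEE1, was lower in BE(2)-C at -0.62. CDKN1A, the inhibitor p21, fell in BE(2)-C from 5.87 ± 0.29 to 0.863 ± 0.12 FPKM (SD, n = 3), at -2.64 (limma adjusted p 8.57e-05), and its change differed between the lines by 2.81 (adjusted p 3.49e-08).

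Levels in the siC libraries set the scale of these changes, and are given side by side without a test because each table was normalized on its own. In Hep-G2 the 55 genes ranged from 1.28 FPKM (CIT) to 42.6 FPKM (TPX2), with AURKA next at 36.7 FPKM and a median of 7.64 FPKM. The range in BE(2)-C was from 2.18 FPKM (CENPE) to 211 FPKM (UBE2C), with MYBL2 next at 197.8 FPKM and a median of 19.8 FPKM. The median number of reads, taken over the 55 genes in all libraries of a line, was 395 for Hep-G2 and 1132 for BE(2)-C. The genes were thus read less precisely in Hep-G2. Near-identical copies of PTTG1, KIF4A, AURKA and UBE2C, 6 in the tables, held at most 0.28 FPKM and 7 reads in any library.

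Primers for AURKA and PLK1 from the oligonucleotide list of the study are shown because they mark stretches of transcripts summed here, and values measured with them were not analysed here.
AURKA forward: aatacagtcccaccttcggc
AURKA reverse: ggagcatgtactgaccaccc
PLK1 forward: ggatgtgtggtccattgggt
PLK1 reverse: gctgggagcaatcgaaaacc
In GRCh38, with exons numbered by the canonical GENCODE transcript, the PLK1 primers matched exactly at chr16:23681032-23681051, in coding exon 3, and at chr16:23684024-23684043 on the minus strand, in coding exon 5. The AURKA reverse primer matched at chr20:56373417-56373436, in coding exon 7, and at 1 more place, on chromosome 10. The AURKA forward primer had no unbroken exact match in the genome.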

How the data were processed

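Strand-specific, paired-end libraries of poly-A RNA were read from Hep-G2 and BE(2)-C cells, 3 per group and 12 in all. According to the submitters' notes, the authors trimmed reads with cutadapt 1.14, aligned them with HISAT2 2.1.0 and SAMtools 1.5, counted them with featureCounts 1.5.3 and tested them with edgeR 3.30.3. The strand setting of counting is not given in the sources used here. The authors deposited the values as FPKM, in a table for each cell line, with columns of their own log2 fold change, p-value and FDR that were not used. All values, 100% of them, were whole reads within 0.05 once multiplied by gene length, the reads on genes of the library and a library factor of 0.966 to 1.02, with the units of FPKM divided out. Between 12852988 and 15721210 reads per library lay on genes.

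Genes with at least 0.1 FPKM in 3 libraries of a table were tested on log2(FPKM + 0.1) with limma 3.58.1 (moderated t with a mean-variance trend), in each table separately. The difference between the lines was tested as an interaction in 1 fit over both tables. P-values were adjusted by Benjamini-Hochberg over all genes tested, with calls at 0.05. Full statistics are given for IGF2BP1, AURKA, PLK1, the 10 called genes with the smallest p in each line and up to 10 genes that were opposite or differed between lines, and at most 3 genes per other list and line are named. The members and lists were chosen with earlier results of these data known. The summed level of the neuroblastoma markers and 1 gene of that list are not reported here.

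The scripts were tested on simulated data. The bar for recovering planted changes was missed at first and was replaced after that result was seen. In those simulations the test between the lines made more false calls than its threshold sets, so its weakest calls should be read with care.

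The alternatives tried were other pseudocounts, filters and thresholds, no mean-variance trend, median centring, equal sums of FPKM, a replicate block, protein-coding genes, each library left out, and the slope over gene length taken off, which was chosen after seeing the data. Promoters were read from RefSeq GRCh38.p14. Primers were matched to the GRCh38 genome sequence, with exons numbered by the canonical transcripts of GENCODE, and levels of the copies were read from the deposited values. R 4.3.3 with data.table (version 1.17.8) and Python 3.11.15 with pandas 2.3.3, numpy 2.4.6 and matplotlib 3.10.9 were used.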

Additional observations from a re-analysis of the deposited data

Results flagged for a closer look

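The change with siI1 differed between the lines for 28 of the 55 genes by the interaction test of limma at an adjusted p below 0.05, 16 lower and 12 higher in Hep-G2, beside 21.7% and 18.5% of the 15362 genes tested. Among protein-coding genes 29 differed, beside 55.2%. Values are the log2 fold change in Hep-G2 minus that in BE(2)-C. It was negative for ECT2 (-1.30), BORA (-0.90), SMC2 (-0.73), ANLN (-0.63), NEK2 (-0.62), CENPF (-0.60), ASPM (-0.55) and SMC4 (-0.54), and for BUB1B (-0.51), KIF11 (-0.49), INCENP (-0.47), KIF4A (-0.45), BUB1 (-0.38), AURKA (-0.37), MKI67 (-0.37) and BUB3 (-0.35). With the slope over gene length taken off, MKI67 (-0.062), BUB3 (-0.15), BUB1 (-0.27), ASPM (-0.28) and INCENP were not called. INCENP kept its size, at -0.46.

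It was positive for FOXM1 (0.27), PLK1 (0.28), BIRC5 (0.36), KIF20A (0.37), KIF2C (0.47) and WEE1 (0.53), and for UBE2C (0.54), CDC20 (0.58), CDC25B (0.71), AURKB (0.92), SPC24 (1.08) and MYBL2 (1.30). MYBL2 was called in opposite directions, higher in Hep-G2. With some other settings, such as median centring, AURKB was too. In Hep-G2, AURKB was smaller and not called with equal sums of FPKM (0.067), with the slope over gene length taken off (0.073) and without siC replicate 1 (0.16).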

How the results depend on the processing

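Of 988 settings of 54 single-gene results, 947 gave the same reading, 20 a weaker, 10 a stronger and 11 a reversed one, all reversed ones in genes that were not called. A reading here is the sign and the call, so sizes could move within the same reading. AURKB in Hep-G2, not called, went from 0.23 to 0.067 with equal sums of FPKM. CDC20 in Hep-G2 was 0.046 with median centring and -0.082 to 0.005 with 1 library left out (0.005 without siI1 replicate 1), CDC25B 0.003 and UBE2C 0.004 with median centring. SPC24 in Hep-G2 was 0.064 with median centring, 0.002 without siC replicate 3, 0.11 without siI1 replicate 1 and -0.13 without siI1 replicate 3. ECT2 in BE(2)-C was 0.022 with median centring, 0.003 with equal sums of FPKM, -0.066 without siC replicate 1, 0.031 without siC replicate 2 and 0.050 without siI1 replicate 1.

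The median of the 55 in Hep-G2 (-0.46) moved to -0.36 with a pseudocount of 1, -0.37 with median centring, -0.62 with equal sums and -0.39 with the slope over length taken off. In BE(2)-C (-0.39) it moved to -0.33 with a pseudocount of 1, -0.35 with median centring and -0.34 without siC replicate 2. At an adjusted p below 0.01, 1 gene was higher in Hep-G2 instead of 2, 18 differed between the lines instead of 28, and 24 instead of 36 were lower in Hep-G2 and 27 instead of 37 in BE(2)-C. Lower genes numbered 29 (Hep-G2) and 33 (BE(2)-C) with median centring, and 45 and 33 with equal sums. Both scalings called 28 between the lines, of which 26 and 23 were among the 28. Equal sums moved the share of higher calls among all genes in Hep-G2 from 48.8% to 35.5% and in the test between the lines from 46% to 31.0%. Median centring moved them to 57.6% and 52.1%, and from 47.4% to 54.6% in BE(2)-C.

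With 1 library left out, 26 to 37 of the 55 were lower in Hep-G2 and 2 to 3 higher, with medians of -0.51 to -0.42, and 29 to 40 were lower in BE(2)-C and 0 higher, with medians of -0.42 to -0.34. Between the lines 24 to 31 differed, and IGF2BP1 stood at -2.18 to -2.06 in Hep-G2 and -2.13 to -2.10 in BE(2)-C. A pairing of libraries by replicate number was not shown, and 3 libraries per group cannot exclude one. Correlations of equally numbered siC and siI1 libraries were 0.200, 0.102 and 0.009 (Hep-G2) and 0.067, -0.001 and -0.003 (BE(2)-C). Those of unequally numbered libraries ran from -0.251 to 0.194 (Hep-G2) and from -0.0745 to 0.0703 (BE(2)-C). With a replicate block, 36 were lower and 3 higher in Hep-G2, 35 lower and 0 higher in BE(2)-C, medians were -0.46 and -0.39, and 30 differed between the lines. Among all genes, 23.2% were then lower in Hep-G2, 13.6% lower in BE(2)-C and 41.0% differed between the lines.

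Each group had 3 libraries, and 1 siRNA pool was used. FPKM are relative to the library, so a change of all RNA per cell is not seen. The slope over gene length differed between libraries and the cause was not tested. In simulations the test between the lines made more false calls than its threshold sets. Cell cycle phase, protein and IGF2BP1 binding were not analysed here.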
